A study of Mus musculus with 2 samples.

Results

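Globin RNA was followed in the forebrain of mouse embryos at embryonic day 12.5, together with RNA of the red cell genes Alas2 and Slc4a1. The 9 genes were listed by symbol and looked up in gene and transcript tables that hold 55536 genes. They comprised 3 embryonic globins (Hbb-y, Hbb-bh1 and Hba-x), 4 adult-type globins (Hbb-bs, Hbb-bt, Hba-a1 and Hba-a2) and 2 red cell genes, and all 9 had a row in both libraries. The genes were chosen by name with earlier TPM values of these same libraries in view, and selected on their levels and on the ratio between the libraries, so levels and differences below are a description and carry no test. Each library was made from 10 ng of RNA from forebrains of B6NCrl embryos, male and female pooled. Pool 1 came from 120 embryos and pool 2 from 68 embryos, and the labels call the pools biological replicates. Both pools belong to a single group with no genetic change and no treatment, so no comparison between conditions exists. Whether blood was removed from the tissue is not given in the sources used here.

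Haemoglobin is a tetramer of alpha-like and beta-like chains, each holding a haem group. In the mouse embryo the first red cells arise in the yolk sac and make embryonic chains, and cells from the fetal liver later make adult chains. Which of these cells the globin RNA below came from was not tested, and chain type is not taken here to show it. The alpha-like and beta-like genes lie in separate clusters, in which the embryonic genes stand nearest the distant enhancers that both clusters depend on. Red cells circulate in the vessels of the embryo, so dissected brain can carry their RNA. Whether it did so here was not tested.

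The coding sequences show how far the embryonic and adult-type genes differ and how alike the adult-type copies are. The opening 60 coding bases of the beta-like genes are given from the GENCODE M21 transcripts (GRCm38), with capitals where a base differs from that of Hbb-y. Hbb-bt has the same 60 bases as Hbb-bs.
Hbb-y: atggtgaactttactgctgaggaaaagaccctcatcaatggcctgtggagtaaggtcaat
Hbb-bh1: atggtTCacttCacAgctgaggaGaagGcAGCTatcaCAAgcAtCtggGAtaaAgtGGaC
Hbb-bs: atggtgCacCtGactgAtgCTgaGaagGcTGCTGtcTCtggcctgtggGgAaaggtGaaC
Over all 441 coding bases, Hbb-y was 76.4% identical to Hbb-bh1 and 74.4% identical to Hbb-bs. For the alpha-like genes capitals mark a difference from Hba-x, and Hba-a2 has the same 60 bases as Hba-a1.
Hba-x: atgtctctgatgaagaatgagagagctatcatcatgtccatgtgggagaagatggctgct
Hba-a1: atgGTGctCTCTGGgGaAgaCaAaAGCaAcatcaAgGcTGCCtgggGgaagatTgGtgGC
Hba-x was 61.7% identical to Hba-a1 over 426 coding bases.

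Within each adult-type pair the coding sequences differ at 1 base, the third base of a codon in both cases. The stretches around that base are shown because reads from most of these transcripts fit both copies. Capitals mark the differing base, at coding position 381 of the alpha pair and 417 of the beta pair, counted from the start codon.
Hba-a1: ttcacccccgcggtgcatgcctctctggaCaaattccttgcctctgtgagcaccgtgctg
Hba-a2: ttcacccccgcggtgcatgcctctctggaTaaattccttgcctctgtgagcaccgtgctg
Hbb-bs: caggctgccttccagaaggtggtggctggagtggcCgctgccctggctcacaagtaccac
Hbb-bt: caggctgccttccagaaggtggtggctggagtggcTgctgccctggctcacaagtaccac
Effective lengths in the tables equal transcript length less 99 bases, as a 100-base read would give, so sharing was counted in windows of 100 bases over all GENCODE M21 transcripts on both strands. Hba-a2 shared 79.5% of its 566 windows with Hba-a1, and Hba-a1 shared 63.3% of its 711 with Hba-a2. For the beta pair 331 windows were common, 49.7% of those of Hbb-bs and 54.8% of those of Hbb-bt. Hbb-y, Hbb-bh1, Hba-x and Slc4a1 shared no window with another gene. Values for single genes of the adult-type pairs are therefore uncertain, while their summed counts and the values of the embryonic globins do not depend on how reads were split within a pair. Summed TPM of a pair does depend on the split, since the models differ in length.

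Levels are given in TPM, an abundance per transcript length scaled to a fixed total per library, and ± gives the SD of the pools (n = 2). Hbb-y, the embryonic epsilon-type beta-like chain, stood at 4992 TPM in pool 1 against 6701 TPM in pool 2, a mean of 5847 ± 1209 TPM. Its gene lies on the minus strand at chr7:103851749-103853216. Among 22015 nuclear protein-coding genes its mean ranked 3, between the alpha-tubulin gene Tuba1a (6074 and 5783 TPM) and the histone gene Hist1h2ap (4792 and 4878 TPM). The pools of Hbb-y spanned those of Tuba1a, so the order of these genes is not fixed beyond the spread. Both pools of Hbb-y lay above those of Hist1h2ap.

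Hba-x, the embryonic zeta chain at chr11:32276400-32278116 on the plus strand, stood at 894.5 TPM in pool 1 against 1259 TPM in pool 2 (1077 ± 257 TPM, rank 53). Hbb-bh1, the other embryonic beta-like chain, at chr7:103841637-103843164 on the minus strand, stood at 333 TPM in pool 1 against 489 TPM in pool 2 (411 ± 110.1 TPM, rank 267). The embryonic globins thus spanned more than an order of magnitude, and pool 2 was the higher pool for each. Hbb-y exceeded Hbb-bh1 15.0-fold in pool 1 and 13.7-fold in pool 2 on the TPM scale.

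Of the adult-type globins, Hba-a2 at chr11:32296489-32297298 had the highest level, with 3779 TPM in pool 1 and 5078 TPM in pool 2 (4429 ± 919 TPM, rank 6). Hba-a1 at chr11:32283511-32284465 read 1815 and 2307 TPM in pools 1 and 2 (2061 ± 348 TPM, rank 24). Both encode the adult alpha chain, lie on the plus strand, and together gave 5594 TPM in pool 1 against 7386 TPM in pool 2. The adult beta chains stood far lower. Hbb-bt at chr7:103812524-103813996 read 467 and 617 TPM (542 ± 106 TPM, rank 174). Hbb-bs at chr7:103826534-103828096 read 363 and 485 TPM (424 ± 86.5 TPM, rank 253). These genes of the minus strand together gave 830.2 TPM in pool 1 against 1102 TPM in pool 2.

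Alas2, the red cell form of the enzyme that begins haem synthesis, lies at chrX:150547375-150570638 and stood at 21.1 TPM in pool 1 against 30.1 TPM in pool 2 (25.6 ± 6.39 TPM, rank 5909). The gene lies inside the span of Apex2 on the opposite strand, and 213 of its 2398 windows also occur in Apex2 transcripts. Apex2 read 18.5 and 20.0 TPM, and whether reads were assigned by strand is not given in the sources used here. Slc4a1, the chloride-bicarbonate exchanger of the red cell membrane at chr11:102348824-102366203, read 16.5 and 20.1 TPM (18.3 ± 2.56 TPM, rank 7136). Summed globin TPM exceeded that of Alas2 600-fold in pool 1 and 562-fold in pool 2, and that of Slc4a1 765-fold and 841-fold.

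In descending order of mean the genes were Hbb-y, Hba-a2, Hba-a1, Hba-x, Hbb-bt, Hbb-bs, Hbb-bh1, Alas2 and Slc4a1. The pools of Hbb-y and Hba-a2 overlapped, as did those of Hbb-bt and Hbb-bs and those of Hbb-bs and Hbb-bh1. Hbb-bs stood above Hbb-bh1 in pool 1 and marginally below it in pool 2. Other neighbours did not overlap, although Alas2 in pool 1 and Slc4a1 in pool 2 lay close together. In the older GENCODE release M4 the mean of Hbb-bs was 312 TPM and that of Hbb-bt 682 TPM, which placed Hbb-bs below Hbb-bh1 at 432 TPM.

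**Figure D1:**
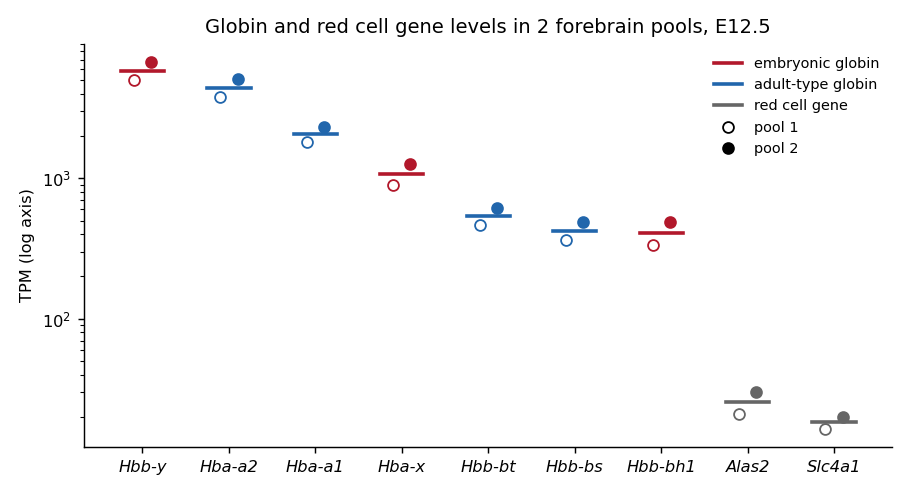
TPM of the 9 genes on a log axis, ordered by mean level. Open circles are pool 1, filled circles pool 2, and the bar is the mean. Pool 2 is above pool 1 for every gene, and the globins lie between 333 and 6701 TPM while Alas2 and Slc4a1 lie between 16.5 and 30.1 TPM.

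Along the chromosomes the levels did not follow distance in the same way in the clusters. In the beta-like cluster Hbb-y stands at the embryonic end, and the starts of Hbb-bh1, Hbb-bs and Hbb-bt follow 10.1, 25.1 and 39.2 kb further on, all at 617 TPM or less in either pool. Hbb-bh2, which lies between Hbb-bh1 and Hbb-bs, had 1 count in pool 1 and 4 in pool 2. In the alpha-like cluster the adult-type Hba-a1 (7.1 kb) and Hba-a2 (20.1 kb) stood above Hba-x. For Hba-a1 this order turned with protein-coding transcripts alone, where it held 753 and 723 TPM, below Hba-x in both pools, while Hba-a2 stayed above it. The theta-globin genes Hbq1b and Hbq1a of this cluster read 1.88 and 0.14 TPM in pool 1 and 1.85 and 0.57 TPM in pool 2. Outside the clusters, the globins cytoglobin (Cygb) and neuroglobin (Ngb) read 3.38 and 0.34 TPM in pool 1 and 3.29 and 0.45 TPM in pool 2.

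**Figure D2:**
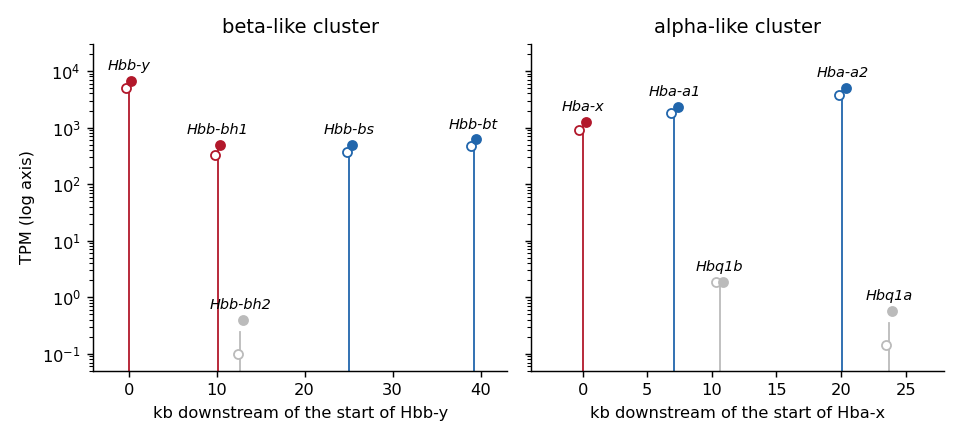
TPM on a log axis against distance in kb from the start of Hbb-y (left) and Hba-x (right). Open circles are pool 1 and filled circles pool 2, with embryonic globins in red, adult-type globins in blue and other globin genes in grey. The highest gene is the embryonic Hbb-y in the beta-like cluster and the adult-type Hba-a2 in the alpha-like cluster.

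Summed over the 7 globins, pool 1 held 12643 TPM and pool 2 held 16936 TPM, or 1.26% and 1.69% of each library's total TPM. Fewer red cells in a pool and less globin RNA per red cell cannot be told apart in bulk tissue. The embryonic genes made up 49.2% of globin TPM in pool 1 and 49.9% in pool 2 (49.5 ± 0.490%). This near-even division joined opposite mixes of the chain types. Embryonic genes made up 86.5% of beta-like TPM in pool 1 and 86.7% in pool 2, but 13.8% and 14.6% of alpha-like TPM. Among single genes, Hbb-y took 39.5% of globin TPM in pool 1 and 39.6% in pool 2, and Hba-a2 took 29.9% and 30.0%. No gene's share moved by more than 1 percentage point between the pools, while summed globin TPM was higher in pool 2.

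Alpha-like TPM exceeded beta-like TPM by a small margin, with a ratio of 1.05 in pool 1 and 1.04 in pool 2. That direction depended on which transcripts and which scale were summed. With protein-coding transcripts alone the ratio was 0.884 in pool 1 and 0.855 in pool 2, and on expected counts, which are not per length, it was 0.961 and 0.944. The embryonic share of globin TPM likewise came to 53.8% and 55.2% with protein-coding transcripts alone. The contrast between the chain types kept its direction under both, at 86.7% and 87.1% embryonic among beta-like and 16.5% and 17.8% among alpha-like genes with protein-coding transcripts alone.

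**Figure D3:**
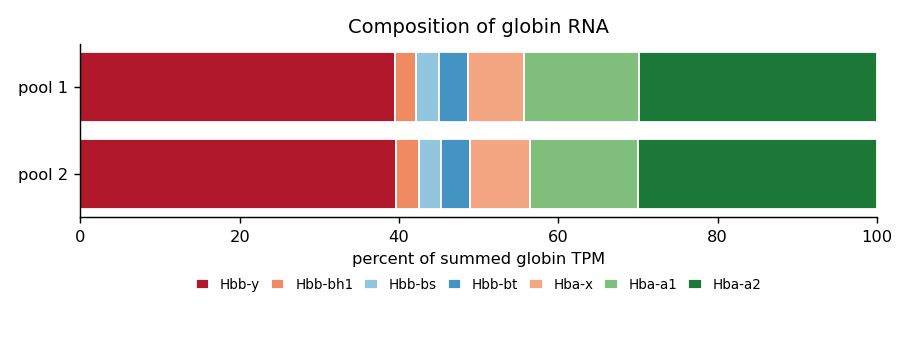
Share of each globin gene in summed globin TPM, in percent, as a stacked bar for each pool. The bars of the pools are almost superposable, with Hbb-y at 39.5% and 39.6% and Hba-a2 at 29.9% and 30.0%.

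Transcript tables divided the RNA of 4 genes between models in both pools. Hba-a1-201, the spliced coding transcript of Hba-a1, held 753 TPM in pool 1 and 723 TPM in pool 2. Hba-a1-202, a shorter model that retains an intron, held 1061 TPM and 1585 TPM, which was 58.5% and 68.7% of the gene. The matching model of the other copy, Hba-a2-202, was listed at 0 in both pools, and all of Hba-a2 was placed on its coding transcript. None of the 395 windows of Hba-a1-202 was found in that transcript alone, since each also occurs in Hba-a1-201 or in a transcript of Hba-a2. Hba-a1-201 had 165 windows of its own out of 600, and Hba-a2-201 had 20 of 455. How much of the level of Hba-a1-202 is intron-containing RNA of either copy was not tested.

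Hba-x was split between coding transcripts in much the same way in both pools, with Hba-x-201 holding 79.9% and 80.8% of its TPM. Hbb-bs was placed almost wholly on its coding transcript Hbb-bs-201, at 96.2% of TPM in pool 1 and 92.3% in pool 2. In release M4, where the models of Hbb-bs have other ends, the retained-intron model Hbb-bs-202 held 64.1% and 71.8% of the gene instead. For Alas2 the coding transcript Alas2-202 held 94.6 expected counts in pool 1 and 362 in pool 2, or 11.8% and 30.3% of the gene's TPM. The longer Alas2-201 held 729 and 817 counts. Of the 1793 windows of Alas2-202, 96 occur in it alone. Hbb-y, Hbb-bh1 and Hbb-bt each have a single transcript model, and Slc4a1 was placed on Slc4a1-201 at 98.9% and 100% of its TPM.

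**Figure D4:**
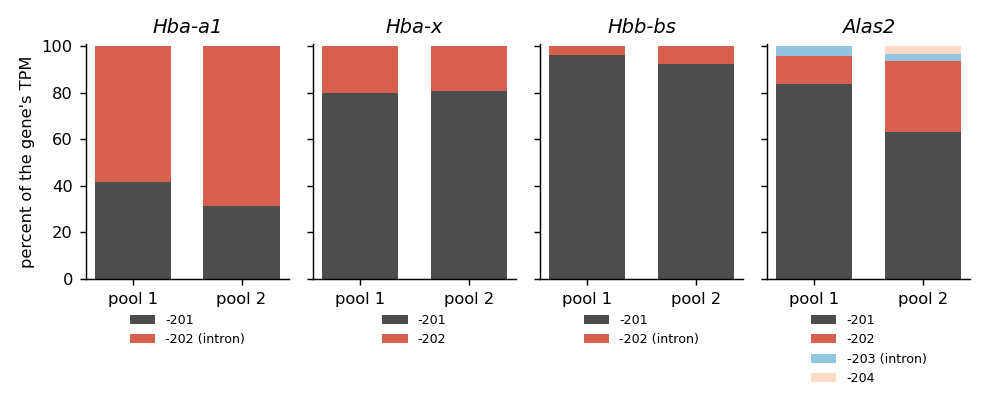
Percent of each gene's TPM held by each of its transcript models, in pool 1 and pool 2, for the 4 genes with more than 1 model above 0 in both pools. Models marked as intron retain an intron. The share of Hba-a1-202 is 58.5% and 68.7%, and that of Alas2-202 is 11.8% and 30.3%.

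The pools were compared on expected counts scaled by TMM, which sets the bulk of genes equal between libraries. The libraries held 33373843 and 34406648 gene counts before rounding. With 1 library a side there is no replicate check on this difference. The 95% intervals cover at most counting error, with reads taken as independent. Hbb-y had 56598 counts in pool 1 and 79145 in pool 2, which was 1.33-fold higher in pool 2 after scaling (interval 1.31 to 1.34). Hbb-bh1 had 3632 and 5554 counts and the largest ratio of the 9 genes, 1.45-fold (1.39 to 1.51). Hba-x had 12486 and 18352 counts and was 1.40-fold higher in pool 2 (1.36 to 1.43). The genes were selected on this ratio, so these intervals set no class of globin apart. The adult-type Hba-a2 had an interval of 1.31 to 1.35.

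The adult-type ratios were more uneven within the alpha pair than within the beta pair. Hba-a2 was 1.33-fold higher in pool 2 (1.31 to 1.35) and Hba-a1 1.20-fold (1.18 to 1.23). Summed, the alpha pair was 1.29-fold higher in pool 2 (1.27 to 1.30). As reads were split, the models of Hba-a1 went in opposite directions. The coding Hba-a1-201 had 9597 and 9588 counts, a scaled ratio of 0.948 (0.922 to 0.976). Hba-a1-202 had 8902 and 13843 counts, a scaled ratio of 1.48 (1.44 to 1.52). These intervals take the split as given, although Hba-a1-202 has no window of its own. The deposited TPM intervals of Hba-a1-201 overlapped between the pools (669 to 796 and 638 to 773). Those of Hba-a1-202 did not (956 to 1089 and 1466 to 1607). Hbb-bs and Hbb-bt were 1.29-fold (1.24 to 1.35) and 1.30-fold (1.26 to 1.35) higher in pool 2. Their sum, which does not depend on the split, was 1.30-fold higher (1.27 to 1.33).

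Alas2 had 831 and 1197 counts, a scaled ratio of 1.37 (1.2503 to 1.495) with pool 2 higher. As reads were split, most of that difference in counts lay in Alas2-202, 3.63-fold higher in pool 2 (2.88 to 4.58), against 1.06-fold for Alas2-201 (0.961 to 1.18). Both intervals take the split between the models as given. Slc4a1 had 1544 and 1980 counts and a scaled ratio of 1.22 (1.14 to 1.30). All 9 genes were higher in pool 2, and 7 of them by at least 25%, the exceptions being Hba-a1 and Slc4a1. Of the 19063 genes whose counts averaged 10 or more, 50.6% were higher in pool 2. At least 25% higher in pool 2 were 15.7% of them. Where counts averaged 100 or more, which holds for all 9 genes, that share was 5.84%. Over protein-coding genes averaging 100 TPM or more, which holds for the 7 globins, it was 1.2% (20 of 1669). The 9 genes were not taken out of these shares, so the globins past 25% are themselves among the 20. None of the 9 was 50% higher, where the share over the 19063 genes was 7.96%. Scaled to spike-in totals in place of TMM, all genes shifted up in pool 2 by a median log2 of 0.17, and all 9 genes were at least 25% higher, as were 25.7% of the 19063. On that scale 3 of the 9 were at least 50% higher, as were 12% of the 19063. The median log2 ratio of the 9 genes was 0.41, beside 0.0026 over all genes. Because the genes were listed with this difference known, nothing is read from these counts.

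**Figure D5:**
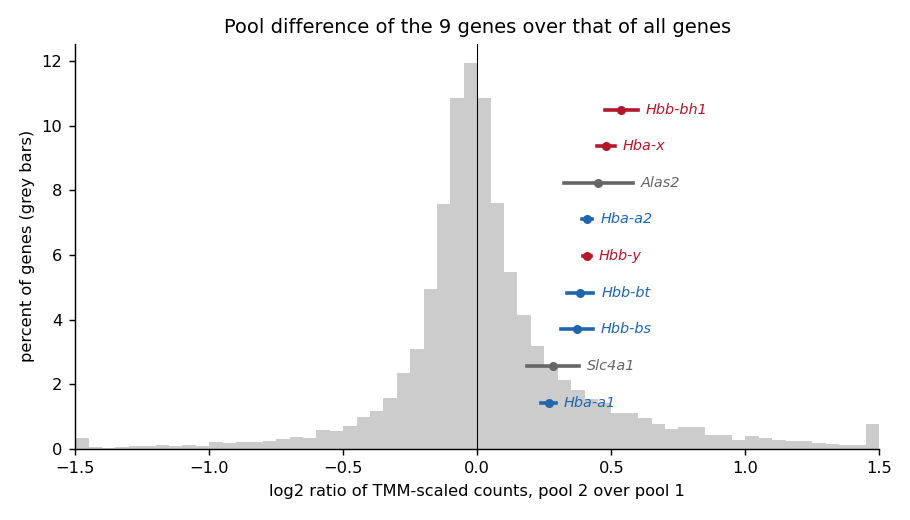
Log2 ratio of TMM-scaled counts, pool 2 over pool 1. Grey bars give the percent of 19063 genes per bin of the ratio, with genes beyond the axis placed in the outermost bins, and points with lines give the 9 genes with 95% counting intervals, stacked by ratio. The 9 genes lie between 0.27 and 0.54.

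Log2 ratios of other genes of the red cell ranged from -0.43 (Trim58, 17 and 13 counts) to 0.96 (Tal1, 92 and 190 counts). Both ends rest on few counts, and the 9 genes were selected on their ratio, so the ranges are not compared. In these lists a gene is called higher by TMM-scaled counts. Counts of genes higher and of genes past 25% stand beside the 50.6% and 15.7% of all genes given above. Of 8 genes of haem synthesis, 6 were higher in pool 2 (median log2 ratio 0.07). Fech, which inserts iron into the ring as the last step, was the only one of them past 25% by counts (1.26-fold). By TPM Fech was 1.44-fold higher (30.1 and 43.3 TPM), and Cpox also passed 25% (10.9 and 14.4 TPM, 1.32-fold). Alas1, the form of the first enzyme used in all tissues, read 60.9 and 61.8 TPM, above Alas2 in both pools. Of 10 red cell membrane genes 6 were higher in pool 2 and 4 passed 25%, among them the ammonium channel Rhag (1.45 and 2.52 TPM). Epb42, also past 25% by counts, was lower in pool 2 by TPM (3.42 and 3.07 TPM). Epb41 and Add2, membrane skeleton genes at 115 and 98.3 TPM in the mean, were lower in pool 2 by counts. Of 9 genes of iron uptake and red cell enzymes 6 were higher in pool 2 and 3 passed 25%, with the erythropoietin receptor Epor at 1.55 and 3.19 TPM and carbonic anhydrase Car2 at 31.4 and 39.7 TPM.

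Most of the listed transcription factors of the red cell lineage were present at low levels beside abundant globins. Klf1, an activator of the adult beta genes, read 1.88 and 2.75 TPM, and Gata1 read 0.76 and 0.68 TPM from 26 and 24 counts. Of 10 factors 8 were higher in pool 2 and 6 passed 25% (median log2 ratio 0.41), beside 50.6% and 15.7% of all genes. Some of the 6 rest on few counts, such as Gfi1b with 21 and 29 and Nfe2 with 54 and 89. Tal1 read 1.28 and 2.20 TPM, and Lmo2 22.7 and 30.9 TPM. Bcl11a and Sox6, which silence embryonic globin genes in red cells and also act in developing neurons, were far higher than the others. Bcl11a read 100.6 and 101.6 TPM and Sox6 104.6 and 108.4 TPM, and neither passed 25%. By scaled counts Sox6 was lower in pool 2 (3681 and 3427 counts, 0.884-fold), as was Gata1. On the spike-in scale these ratios shift up with those of all genes.

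Marker genes of several cell types were set beside the pool difference, with summed levels in TPM and the genes higher in pool 2 counted by TMM-scaled counts. Of all 19063 genes 50.6% were higher in pool 2 by such counts and 55.5% on log2(TPM + 1). By at least 25% in counts, 15.7% were higher. Of 7 further red cell markers 6 were higher in pool 2 (5 by TPM), with summed levels of 12.3 and 16.6 TPM. All 7 markers of meninges and mesenchyme were also higher in pool 2, 6 of them by at least 25%, with summed levels of 643 and 783 TPM. Platelet-lineage markers summed to 34.6 and 42.3 TPM (4 of 6 higher in pool 2) and macrophage markers to 33.4 and 37.8 TPM (5 of 6 by counts, 4 of 6 by TPM). Endothelial markers summed to 83.0 and 81.5 TPM (2 of 6 by counts, 3 of 6 by TPM), and blood progenitor markers to 55.4 and 58.0 TPM (1 of 4 by counts, 2 of 4 by TPM). The neuron markers summed to 1318 and 1224 TPM and neural progenitor markers to 632 and 621 TPM, with 1 of 4 higher in pool 2 by counts in each list (by TPM, 1 of 4 and 2 of 4), and all 8 were above 1 TPM in both pools. They mark neural tissue, not forebrain alone. No marker of any list was at 0 in both pools. The part of mesenchymal or other cells in the globin difference was not tested, and the number of embryos, the dissection and the library cannot be told apart with 1 library a pool.

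By a rule of likeness, the genes closest to the 9 in their difference between the pools were Snurf, Col1a2, S100a11, Id3 and Col1a1. Likeness was the distance of a gene's log2 ratio from the median of the 9, over 2 libraries and 1650 other protein-coding genes averaging 100 TPM or more. Col1a2 and Col1a1, the chains of type I collagen, read 114 and 162 TPM in pool 1 and 151 and 209 TPM in pool 2. S100a11, a calcium-binding protein, read 196 and 268 TPM, and Id3, an inhibitor of helix-loop-helix factors, 135 and 178 TPM. Snurf, whose transcripts overlap those of Snrpn, read 115 and 154 TPM. Of the 1650 genes, 8 had a ratio at or above the median of the 9.

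Promoter sequence was examined as a description alone, since the 9 genes were listed with their pool difference known. RefSeq promoters (GRCm38.p6, 250 bases before to 50 after the start) matched 7 of the 9 genes, all but Hbb-bh1 and Slc4a1. Short motifs were searched on both strands in the 250 bases before the start. They were the CACCC box, the CCAAT box, the GATA site in the form GATAA, and the TATA box in the form TATAA or in the form ATAAAA. The stretches from 120 to 16 bases before the start are shown for the highest gene of each cluster, with motif matches in capitals. That of Hbb-y is chr7:103853223-103853327 on the minus strand and that of Hba-a2 is chr11:32296372-32296476 on the plus strand.
Hbb-y: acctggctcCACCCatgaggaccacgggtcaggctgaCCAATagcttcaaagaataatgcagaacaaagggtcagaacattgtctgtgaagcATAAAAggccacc
Hba-a2: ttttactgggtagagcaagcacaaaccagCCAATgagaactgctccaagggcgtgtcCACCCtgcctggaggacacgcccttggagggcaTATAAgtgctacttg
The same order, CACCC then CCAAT then a TATA-type box, was found in Hbb-y, Hbb-bs and Hbb-bt, while in Hba-a2 the CCAAT lies before the nearer CACCC. Hba-a1 and Hba-a2 share an identical run of 247 bases in the 250-base window, so their matches are those of 1 sequence held by both genes, and the counts of promoters below take each gene separately.

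For the other genes 30-base windows are shown around the same motifs, 40 to 11 bases before the start for the TATA-type box and further upstream for the rest. The upstream windows are chr7:103827995-103828024 for Hbb-bs, chr7:103813989-103814018 for Hbb-bt, chr11:32276490-32276519 for Hba-x and chrX:150547322-150547351 for Alas2. Distances are from the RefSeq start. GENCODE places the start of the gene Hbb-bs 168, of Hbb-bt 73 and of Hba-x 200 bases further upstream. By its gene annotation both windows of Hbb-bs and Hba-x and the TATA window of Hbb-bt lie inside the gene. The upstream window of Hbb-bt overlaps its start. For Hbb-bs, that start belongs to the model Hbb-bs-203, at 0 counts in both pools. The coding Hbb-bs-201, at 96.2% and 92.3% of the gene's TPM, starts at the RefSeq start, chr7:103827928, with both windows upstream of it.
Hbb-bs upstream: gagccaCACCCtggtaagggCCAATctgct
Hbb-bt upstream: gggtaaCACCCtggcATTGGCCAATctgct
Hba-x upstream: tctGATAAcaggctcCACCCtgcaagcccc
Alas2 upstream: ctttgctTTTTATCtttagcagaggcctga
Hbb-bs TATA: agggcagagcaTATAAggtgaggtaggatc
Hbb-bt TATA: cagcATTGGgtaTATAAagctgagcagggt
Hba-x TATA: tgaccatgtgtaTATAAaggagacactggg
In Hbb-bt CCAAT matches on opposite strands abut, and in Alas2 the reverse-strand matches of GATAA and ATAAAA overlap. CACCC occurred in 7 of 7 promoters, against 52.0% of all 32851 in the table, and GATAA in 7 of 7 against 22.6%. CCAAT occurred in 5 of 7, all but Hba-x and Alas2, against 33.8%. TATAA or ATAAAA on the forward strand within 45 bases of the start was found in 6 of 7, the 6 globins, against 5.92% of all. Anywhere in the 250 bases, TATAA was found in 22.8% and ATAAAA in 17.0% of all promoters. The motifs were chosen after the sequences were seen, so nothing is read from these shares. The matches describe the letters of the windows and were not linked to the levels or the pool difference by any test.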

How the data were processed

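PolyA-selected cDNA was primed with oligo-dT from RNA of 2 pools, amplified by PCR and tagmented, with ERCC spike-in RNAs, per the labels' protocols. For each library the authors deposited tables of genes and of transcripts on mm10, with GENCODE M21 (main here) and M4, made from transcriptome alignments. Aligner, quantifier and strand use: not given in the sources used here. The deposited expected counts are estimated reads with multiple matches shared out. The deposited TPM values are per effective length and scaled to 1e+06 per library, spike-ins included. The deposited FPKM values were not used in any result. The deposited posterior mean TPM, treated as a score, was an alternative.

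Gene counts came to 33373843 and 34406648 and spike-in counts to 3.58% and 3.28% of the libraries. Entries that name no gene held 5.74e-05% and 9e-05%. Expected counts were rounded for edgeR 4.0.16 (TMM, prior count 1, genes averaging 10 counts or more), and DESeq2 1.42.0 gave alternative size factors, with R 4.3.3, Python 3.11.15 and pandas 2.3.3. The biological coefficient of variation between the pools over 19063 genes was 8.50%. Intervals of ratios are exact binomial at 95%. They reflect counting error alone and take each read as an independent draw. Without molecular identifiers PCR duplicates cannot be told from independent molecules, so the intervals may be too narrow even for counting error. The smallest two-sided p of an exact test by sign flips over 2 pools is 0.5, so no test was made. The ratio step was tested on simulated data. The 9 genes and all lists were chosen with earlier results of these data known. Genes named were the 9, any gene of lists of 10 or fewer, the neighbours of Hbb-y in level and the 5 genes of like pattern. Of the listed markers, 1 is not analysed here, and single values of some listed genes are not reported here. Windows, coding sequences and motifs came from GENCODE M21 transcripts and RefSeq promoters. The promoter motifs and the windows shown were chosen after the sequences were seen.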

Additional observations from a re-analysis of the deposited data

How the results depend on the processing

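No paired analysis was possible because the labels give 1 group and no contrast. The 54 alternative log2 ratios of single genes, pool 2 over pool 1, stayed above 0, from 0.26 to 0.70. The alpha-like to beta-like ratio crossed 1, and the cause was not tested. With the M4 tables the median level of the 9 genes was 682 TPM in place of 542 TPM, the embryonic share of globin TPM 48.5%, that of beta-like TPM 86.3% and the alpha-like to beta-like ratio 1.10. On expected counts, not per length, the globins made up 0.484% of gene counts, the embryonic share was 53.3% of all, 85.9% of beta-like and 19.1% of alpha-like globin counts, and the ratio was 0.953. With protein-coding transcripts alone, an alternative chosen after seeing the data, these were 54.5%, 86.9%, 17.2% and 0.869. Hba-a1-202 held 63.6% of its gene by TPM and 53.6% by counts. The median log2 ratio was 0.41 with TMM, 0.44 with total counts, 0.42 on log2(TPM + 1) and 0.57 with spike-in totals, where all genes shifted by 0.17. With TMM, 7 of 9 genes were at least 25% higher in pool 2 and 0 were 50% higher. With spike-in totals 9 were at least 25% higher, as were 25.7% of all genes, and 3 were at least 50% higher, as were 12%. Summing the near-identical pairs, also chosen after seeing the data, left the median at 0.41. Leaving out each pool gave 467 to 617 TPM for the median level, 12643 to 16936 for summed globin TPM, 49.2% to 49.9%, 86.5% to 86.7% and 13.8% to 14.6% for the embryonic shares and 1.04 to 1.05 for the ratio. Of the alternatives of summary results 34 stayed within the spread or interval of the main value and 18 did not, and for single genes 74 did and 16 did not. Those that leave out a pool are among the ones within. With 2 pools each always lies within the SD of the mean, so they could not fall outside and say nothing on stability.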

Other observations

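Globin pseudogenes were looked up after the tables were seen. Hbb-bh0, a pseudogene of 129 bases in the beta-like cluster, stood at 15.7 TPM in pool 1 against 9.04 TPM in pool 2, of the same order as Slc4a1, but from 10 and 6 expected counts over an effective length of 30 bases. Its TPM was lower in pool 2, against the direction of the 7 globins, on counts too few to read a direction from. Hba-ps4 had 3 counts in pool 1 and 0 in pool 2, and Hbb-bh3 and Hba-ps3 had 0 in both, which leaves a limit of 3 counts each.

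The globins and the further red cell markers stood far apart in level. Summed globin TPM was 14790 ± 3036 (SD, n = 2), whereas the 7 further red cell markers, among them Gata1, Klf1 and Epor, summed to 14.4 TPM in the mean. Myb, a factor of early blood precursors that other tissues also express, read 6.47 and 6.34 TPM.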
